A study of Mus musculus with 15 samples.

Results

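Calm2 and Calm3 are separate genes that encode the same protein, calmodulin. They were chosen by name, and every listed transcript whose annotated gene name was Calm2 or Calm3 was taken. This gave 2 transcripts, 1 for each gene, of the 10370 transcripts listed in the series. The libraries were made from total RNA of dissected cortex from male C57BL/6 mice (C57Bl/6J in the study's methods) with a labelled age of 12 weeks. The 8 HF-HI mice had received high-frequency head impact, in which anesthetized animals are struck on the head several times a day on consecutive days, and cortex was taken 1 month later. The 7 Sham mice had the same handling and isoflurane anesthesia without the impacts, so anesthesia is shared by both groups. The tissue was a whole homogenate, so fewer cells of a type and less RNA per cell cannot be told apart. The labels name the replicates as separate samples and say no more of how they were prepared.

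Calmodulin is a small calcium sensor that is abundant in neurons. It binds calcium ions in its EF-hand loops, changes shape, and then docks on target proteins such as calmodulin-dependent kinases, the phosphatase calcineurin, adenylyl cyclases, calcium pumps and ion channels. In the postsynaptic spine it couples calcium entry through NMDA receptors to the kinase and phosphatase steps of synaptic plasticity, while neurogranin and related small proteins hold it in its calcium-poor form.

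The coding sequences of the listed transcripts were compared first, because reads can be assigned to Calm2 or Calm3 only where the bases differ. Calm2 (transcript ENSMUST00000040440) lies at chr17:87433412-87446935 on the minus strand of GRCm38 and has 6 exons. Calm3 (transcript ENSMUST00000019514) lies at chr7:16915379-16924114, also on the minus strand and also with 6 exons. Each coding sequence has 450 bases and translates to 149 residues, and 0 residues differ between them. At the level of DNA, 78 of the 450 coding bases differed, an identity of 82.7%. Of these differences 74 were at the third place of a codon, 4 at the first and 0 at the second. Calm3 was richer in G and C at the third place (66% against 48% in Calm2). The transcripts also differed in length, at 1205 bases for Calm2 and 2290 bases for Calm3, mainly through 3′ untranslated regions of 615 and 1569 bases.

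The calcium-binding loops show how the same residues are spelled with different codons. Below are the coding bases of loops 1 and 4, 5′ to 3′ on the coding strand, from GENCODE M21 on GRCm38, with capitals at every base that differs between Calm2 and Calm3. Loop 1 covers residues 21 to 32, counted from 1 at the initiator methionine, and lies within 1 coding exon, at chr17:87435873-87435908 for Calm2 and chr7:16917667-16917702 for Calm3. Loop 4 covers residues 130 to 141, and its codons are divided between 2 coding exons.
Calm2 loop 1: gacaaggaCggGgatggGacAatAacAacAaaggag
Calm3 loop 1: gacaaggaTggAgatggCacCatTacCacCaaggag
Calm2 loop 4: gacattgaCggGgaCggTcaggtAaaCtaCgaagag
Calm3 loop 4: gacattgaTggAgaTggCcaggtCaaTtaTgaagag
In each of these loops 7 of the bases differed, and loops 2 and 3 held 7 and 5 further differences. The longest run of coding bases that Calm2 and Calm3 share was 17 bases. Reads of the sequenced length of 100 bases therefore cross several distinguishing bases wherever they fall in the coding sequence. When every window of 100 bases was looked up in the other annotated genes, 11 of 1106 windows of Calm2 (0.995%) and 3 of 2191 windows of Calm3 (0.137%) were also present in another gene. For windows of 50 bases the counts were 147 of 1156 (12.7%) for Calm2 and 62 of 2241 (2.77%) for Calm3.

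**Figure D1:**
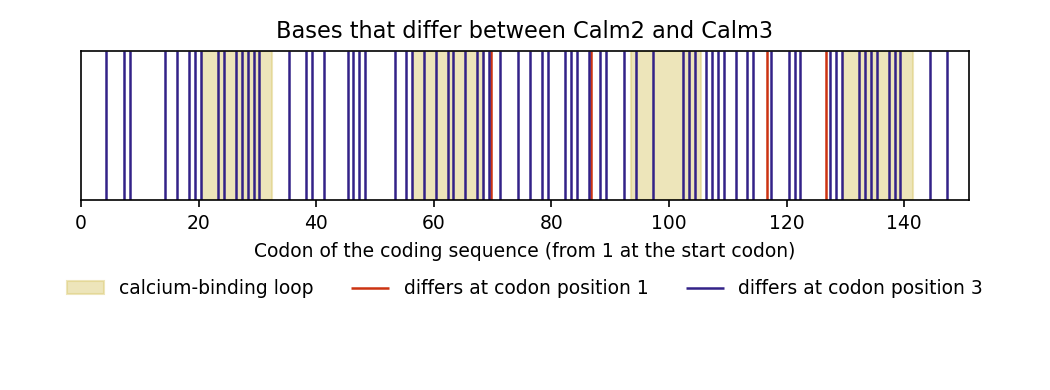
Positions at which the Calm2 and Calm3 coding sequences differ, by codon number along the x axis, with the 4 calcium-binding loops shaded. The 78 differences run along the whole coding sequence, 74 of them at the third place of a codon, and 26 fall inside the loops.

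Both genes were among the most abundant transcripts of the cortex. The deposited values are variance-stabilized values (VSD, on a log2 scale), and normalized counts were recovered from them, which are reads divided by the size factor of the library. Over all 15 libraries the mean was 11487 normalized counts for Calm2 and 12618 for Calm3, which placed them at ranks 29 and 22 of the 10370 transcripts. Per kilobase of transcript the order was the other way around. In Sham cortex Calm2 had 9728 ± 516 normalized counts per kilobase (SD, n = 7) and Calm3 had 5347 ± 192, and in HF-HI cortex they had 9361 ± 575 and 5652 ± 381 (SD, n = 8). Calm3 per kilobase was 0.514 to 0.593 of Calm2 in the Sham libraries and 0.542 to 0.782 in the HF-HI libraries, so Calm2 had the higher level per length in all 15.

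Calm2 had the lower mean in HF-HI cortex, and this difference did not pass the test. In the Sham libraries its lowest value was 11057 normalized counts in replicate 5, the median 11629 and the highest 12481 in replicate 6. In the HF-HI libraries the lowest was 9997 in replicate 2, the median 11481 and the highest 11891 in replicate 8. The groups overlapped widely, with 6 of 8 HF-HI libraries inside the Sham range and 2 (replicates 2 and 7) below it. The means were 11722 ± 622 in Sham (SD, n = 7) and 11280 ± 693 in HF-HI (SD, n = 8), a difference of -3.77% relative to Sham. The linear model in limma on VSD gave an HF-HI minus Sham difference of -0.05 (SE 0.038, 95% interval -0.13 to 0.03, unadjusted p = 0.219, adjusted p = 0.743). On reads summed per gene, limma's voom gave a fold of 0.965 with an interval of 0.911 to 1.02 (unadjusted p = 0.220, adjusted p = 0.749). With 1 listed transcript the sum holds the same reads, so voom is here a second model of the same values.

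Calm3 had the higher mean in HF-HI cortex, by 5.71%, and this difference did not pass the test. In the Sham libraries its lowest value was 11698 normalized counts in replicate 5, the median 12133 and the highest 13101 in replicate 7. In the HF-HI libraries the lowest was 12178 in replicate 5, the median 12759 and the highest 14848 in replicate 2. All 8 HF-HI libraries were above the Sham median, yet 6 of them stayed inside the Sham range and 2 (replicates 2 and 4) were above it. The means were 12245 ± 440 in Sham (SD, n = 7) and 12944 ± 872 in HF-HI (SD, n = 8). The VSD difference was 0.07 (SE 0.036, 95% interval -0.0073 to 0.15, unadjusted p = 0.0731, limma adjusted p = 0.598). On reads summed per gene, again those of the 1 listed transcript, the fold was 1.05 with an interval of 0.997 to 1.11 (unadjusted p = 0.0627, voom adjusted p = 0.571).

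**Figure D2:**
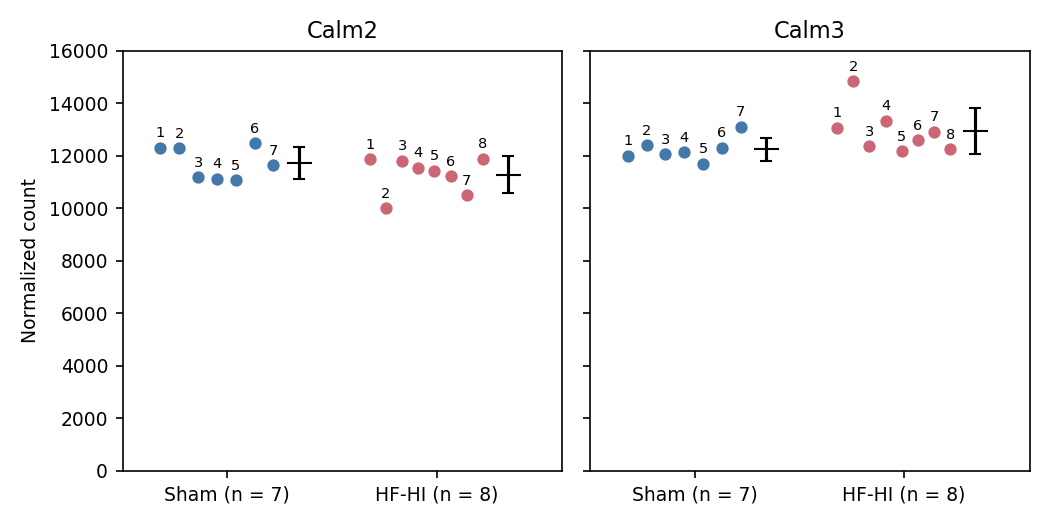
Normalized counts of Calm2 and Calm3 (y axis, from 0) in each Sham and HF-HI library, with the replicate number above each point and the mean with SD as a bar. Calm2 HF-HI replicate 2 is the lowest of its 15 libraries at 9997, and Calm3 HF-HI replicate 2 is the highest of its 15 at 14848.

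Over all transcripts 0 of 10370 (0%) passed the study's threshold of an adjusted p under 0.1 in limma, and 916 (8.83%) had an unadjusted p under 0.05. Among gene sums 0 of 7870 (0%) passed in voom, and 736 (9.35%) had an unadjusted p under 0.05. Neither Calm2 nor Calm3 was among the genes counted at that unadjusted level by either test. Transcripts with a smaller p than Calm3 made up 12.2% of those tested, and those with a smaller p than Calm2 made up 29.4%. The paper does report significantly differentiated genes between these groups, both higher and lower, from the authors' own test on read counts. That test was not run here, so the lack of adjusted calls applies to limma and voom only.

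Counting error was small beside the spread between libraries. Calm2 rested on 5777 to 17553 reads in a library and Calm3 on 6677 to 17874. The coefficient of variation of Calm2 was 5.31% in Sham and 6.14% in HF-HI libraries, where counting alone would give 0.842% and 1.06%. Calm3 varied by 3.60% in Sham and 6.74% in HF-HI, against 0.822% and 0.979% from counting.

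Depth differed between the groups, and the differences in both genes were smaller once it was taken into account. Size factors were 0.818 to 1.47 in Sham and 0.501 to 1.22 in HF-HI libraries, and the 3 lowest of the series were HF-HI replicates 4, 7 and 2. These lie below every Sham library, as does HF-HI replicate 6 at 0.813, so within that range depth and group cannot be told apart. Without these 3 libraries, an alternative chosen after seeing the data, the VSD difference of Calm3 was 0.03 (unadjusted p = 0.378, limma adjusted p = 0.931) and that of Calm2 was -0.0075 (unadjusted p = 0.828, adjusted p = 0.989). With depth as a covariate over all 15 libraries Calm3 differed by 0.02 (unadjusted p = 0.599, limma adjusted p = 0.990) and Calm2 by -0.0066 (unadjusted p = 0.882, adjusted p = 0.995). With HF-HI replicate 2 alone left out, the difference was 0.04 for Calm3 (unadjusted p = 0.121, limma adjusted p = 0.673) and -0.03 for Calm2 (unadjusted p = 0.421, adjusted p = 0.845). Quantile normalization moved the other way for Calm3, to 0.18 (unadjusted p = 0.0144, limma adjusted p = 0.446).

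**Figure D3:**
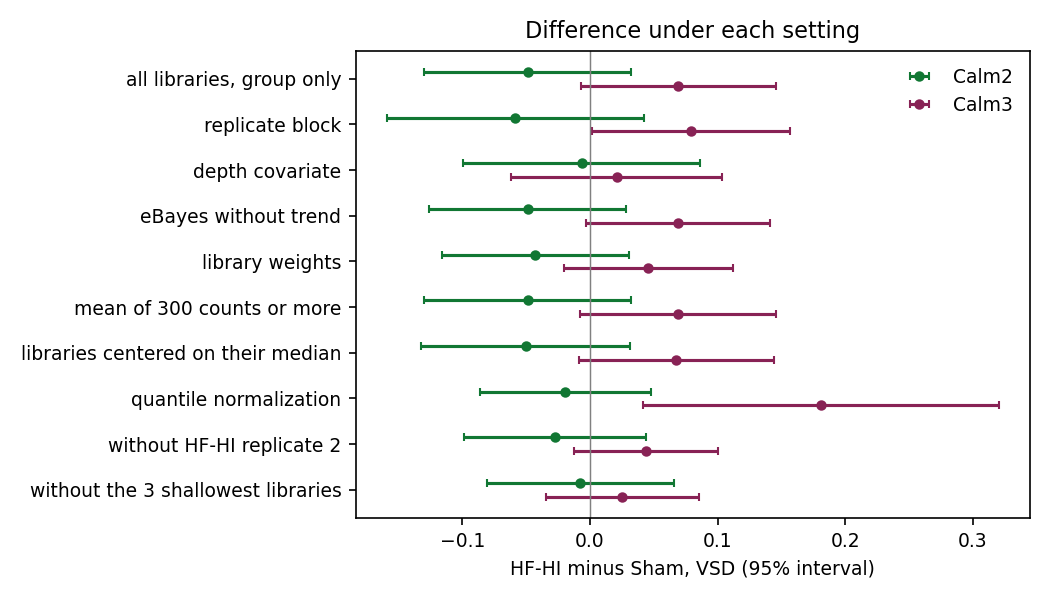
HF-HI minus Sham difference in VSD (x axis) for Calm2 and Calm3 under each setting named on the y axis, with 95% intervals from limma. Every Calm2 point lies below 0 and every Calm3 point above it, from 0.02 with the depth covariate to 0.18 with quantile normalization.

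Calm3 was also expressed relative to Calm2 within each library, which cancels the size factor. The log2 ratio of Calm3 to Calm2 in normalized counts was -0.04 at its lowest, 0.08 at the median and 0.17 at its highest in Sham libraries. In HF-HI libraries it was 0.04 at its lowest, 0.15 at the median and 0.57 at its highest. The 3 HF-HI libraries above all Sham libraries were replicate 2 at 0.57, replicate 7 at 0.30 and replicate 4 at 0.21, which are the 3 with the lowest size factors. The other 5 HF-HI libraries fell inside the Sham range, with a mean of 0.10 ± 0.05 (SD, n = 5) beside 0.06 ± 0.08 in Sham (SD, n = 7). Over all 8 HF-HI libraries the mean was 0.20 ± 0.17 (SD, n = 8). The counting error of this ratio was at most 0.026 on the log2 scale. These ratios are given as a description, with no test.

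**Figure D4:**
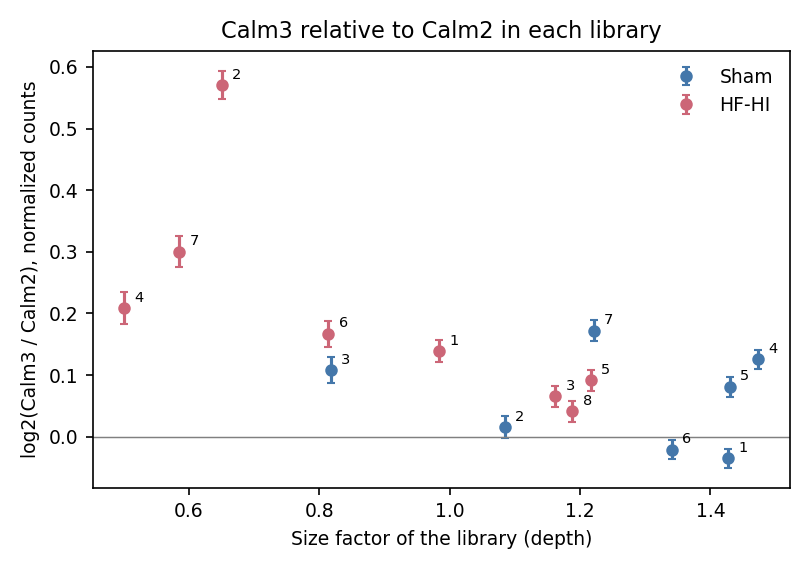
Log2 ratio of Calm3 to Calm2 (y axis, normalized counts) against the size factor of each library (x axis), with counting error as bars and replicate numbers beside the points. The 3 libraries of lowest size factor, all HF-HI, have the 3 highest ratios, at 0.21, 0.30 and 0.57.

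The sum of Calm2 and Calm3 varied less than either gene did in HF-HI cortex. It was 22755 to 24786 normalized counts in Sham libraries and 23416 to 24927 in HF-HI libraries. Of the HF-HI sums 3 of 8 lay above the highest Sham sum, and of the Sham sums 3 of 7 lay below the lowest HF-HI sum. Its mean was 23967 ± 854 in Sham (SD, n = 7) and 24224 ± 599 in HF-HI (SD, n = 8). Its coefficient of variation in HF-HI was 2.47%. In Sham it was 3.56%, close to the 3.60% of Calm3 alone and below the 5.31% of Calm2. Calm3 made up 51.1% ± 1.36 of the sum in Sham (SD, n = 7) and 53.4% ± 2.94 in HF-HI (SD, n = 8), with the highest share, 59.8%, in HF-HI replicate 2.

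HF-HI replicate 2 also stood apart over all transcripts. On the leading principal component (14.3% of the variance) it scored 12.6, where the other 14 libraries lay between -3.35 and 0.721. Markers of the cell types in the cortex were summed in each library. Of 33 markers 28 were listed, 0 of the listed ones were at 0 in all libraries, and 1 (P2ry12, of microglia) had an unadjusted p under 0.05, lower in HF-HI. The summed excitatory neuron markers, all 4 of which were listed, spanned 6529 to 7575 normalized counts for Sham libraries and 6448 to 7694 for HF-HI. Of the HF-HI libraries 1 was below every Sham library and 1 above. The summed astrocyte markers, also 4 of 4, spanned 5133 to 5499 and 4701 to 5680, with 3 HF-HI libraries below every Sham library and 1 above. The summed inhibitory neuron markers (4 of 4 listed) spanned 4958 to 5492 for Sham and 4419 to 5444 for HF-HI, with 4 HF-HI libraries below every Sham library. The summed endothelial markers (3 of 4 listed) spanned 1093 to 1173 and 915 to 1190, also with 4 HF-HI libraries below every Sham library, and with 2 above. The lowest endothelial sums were 915 in HF-HI replicate 7 and 949 in HF-HI replicate 2, the libraries in which Calm2 lay below the Sham range. Both are also among the 3 libraries of lowest size factor. Endothelial sums were also below every Sham library in HF-HI replicates 3 (1016) and 1 (1043). Calm2 was inside the Sham range in these, at 11817 and 11863. The part of endothelial cells in the values of Calm2 was not tested. The sums of oligodendrocyte, microglial and striatal markers (4 of 4, 4 of 4 and 4 of 5 listed) had 1, 3 and 3 HF-HI libraries below every Sham library. They had 1, 0 and 1 above every Sham library. Ttr, of the choroid plexus, was at 6589 to 8663 in 4 libraries (Sham 1 and 2, HF-HI 2 and 5) and at 21.0 to 176 in the other 11, and its part in the values of Calm2 and Calm3 was not tested.

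The genes that varied most like each member between libraries were then listed. After the group means were removed, the gene sums most like Calm2 over the 15 libraries were Cd34 (Pearson's r = 0.925), a surface glycoprotein of endothelial and progenitor cells, Rnf13 (r = 0.887), a ubiquitin ligase, and Serinc1 (r = 0.877). Those most like Calm3 were Nalcn (r = 0.913), the sodium leak channel, and the ribosomal protein genes Rpsa (r = 0.890) and Rpl14 (r = 0.861). Without HF-HI replicate 2 these values were 0.886, 0.843 and 0.812 for the genes named with Calm2, and 0.862, 0.742 and 0.663 for those named with Calm3. The points share library and depth, the 6125 genes compared are not independent, and the values are a description.

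Genes linked to calmodulin signalling, and other EF-hand proteins, were then counted over 6 lists of 81 genes, of which 66 had a gene sum. In voom 0 passed the adjusted threshold, with 0.202 as the smallest adjusted p. The count at an unadjusted p under 0.05 was 11 of 66 (16.7%), with 7 of them higher and 4 lower in HF-HI, where 5.1% of all gene sums were counted as higher and 4.26% as lower. Their median difference was 5.8e-04 on the log2 scale of gene sums, beside -0.0037 over all 7870. With depth as a covariate 8 of the 66 were counted, beside 486 of 7870 (6.18%) over all gene sums. The lists were chosen with earlier results of these data known, so these counts are a description and no test of the lists.

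In the list of calmodulin stores and their relatives, 5 of 5 genes were measured, 0 were counted as higher and 1 as lower. Binding of calmodulin by these proteins was not measured here. Pcp4l1, a relative of the small IQ-motif protein Pcp4, had 464 ± 36.7 normalized counts in Sham (SD, n = 7) and 396 ± 59.8 in HF-HI (SD, n = 8), and all 8 HF-HI libraries were at or below the Sham median (log2 difference -0.23, unadjusted p = 0.0211, voom adjusted p = 0.441). Pcp4l1 differed by -0.15 without HF-HI replicate 1, and it was no longer counted without the 3 libraries of lowest size factor (unadjusted p = 0.0512). Neurogranin (Nrgn), the postsynaptic store, differed by -0.03 (unadjusted p = 0.638 in limma's voom), Gap43, its presynaptic counterpart in growth cones, by -0.09 (unadjusted p = 0.295), and Pcp4 itself by -0.17 (unadjusted p = 0.0597). The list's median difference was -0.09 on the log2 scale.

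Among the calmodulin-dependent kinases and their inhibitors, 16 of 17 were measured, 2 were counted as higher and 0 as lower. Camk2a, the alpha subunit of the kinase known for its role in synaptic potentiation, had 7779 ± 392 normalized counts in Sham (SD, n = 7) and 8585 ± 417 in HF-HI (SD, n = 8), and all 8 HF-HI libraries were above the Sham median. Its log2 difference was 0.14 (unadjusted p = 7.0e-04, voom adjusted p = 0.202), and with depth as a covariate it was 0.16 (unadjusted p = 0.0012). Camkk1, a kinase that activates other calmodulin-dependent kinases, had 776 ± 42.4 in Sham and 862 ± 64.4 in HF-HI, a log2 difference of 0.15 (unadjusted p = 0.0033, voom adjusted p = 0.279). With protein-coding transcripts only, Camkk1 differed by 0.09 and was no longer counted (unadjusted p = 0.159). The beta subunit Camk2b differed by 0.03 (unadjusted p = 0.445) and the nuclear kinase Camk4 by -0.04 (unadjusted p = 0.347, voom adjusted p = 0.809). The list's median was 0.0058.

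Of the calcineurin genes 9 of 12 were measured, with 0 counted as higher and 1 as lower. The catalytic subunit Ppp3ca had 13216 ± 658 normalized counts in Sham (SD, n = 7) and 13148 ± 698 in HF-HI (SD, n = 8), a log2 difference of -0.010 (unadjusted p = 0.780, voom), and the regulatory subunit Ppp3r1 differed by 0.015 (unadjusted p = 0.658). The calcineurin regulator Rcan3 had 275 ± 25.8 in Sham and 247 ± 38.2 in HF-HI (log2 difference -0.18, unadjusted p = 0.0396, voom adjusted p = 0.503). It was no longer counted when any 1 of 9 libraries was left out (Sham 2, 3, 4 or 7, HF-HI 1, 3, 4, 5 or 8).

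Of the cyclases, phosphodiesterases and nitric oxide synthase 8 of 9 were measured, with 1 counted as higher and 0 as lower. Adcy1 is an adenylyl cyclase that calcium and calmodulin stimulate. It had 11210 ± 520 normalized counts in Sham (SD, n = 7) and 12185 ± 549 in HF-HI (SD, n = 8). Its log2 difference was 0.11 (unadjusted p = 0.0025, voom adjusted p = 0.264), all 8 HF-HI libraries were above the Sham median, and with depth as a covariate its unadjusted p was 0.0524. The phosphodiesterase Pde1a differed by -0.015 (unadjusted p = 0.741).

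Of the calcium pumps and channels that bind calmodulin 14 of 17 were measured, with 4 counted as higher and 1 as lower, and the median difference was 0.05 on the log2 scale. The higher ones were Ryr2, a calcium release channel, Cacna1b and Cacna1d, which are voltage-gated calcium channels, and Scn8a, a sodium channel. Ryr2 went from 4803 ± 117 normalized counts (SD, n = 7) to 5044 ± 102 (SD, n = 8), a log2 difference of 0.07 (unadjusted p = 0.0041, voom adjusted p = 0.290). Cacna1b differed by 0.15 (unadjusted p = 0.0114), Cacna1d by 0.10 (unadjusted p = 0.0188) and Scn8a by 0.06 (unadjusted p = 0.0267). Cacna1c, another voltage-gated calcium channel, was the lower one, at 708 ± 37.5 in Sham and 654 ± 44.5 in HF-HI (log2 difference -0.13, unadjusted p = 0.0148, voom adjusted p = 0.413). The plasma membrane calcium pump Atp2b1 differed by 0.012 (unadjusted p = 0.756). Scn8a was no longer counted without Sham 1, Sham 2, Sham 6 or HF-HI 3, nor without the 3 libraries of lowest size factor, and Cacna1b was not with depth as a covariate (unadjusted p = 0.0904).

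Of the other EF-hand sensors and buffers, the wider family to which calmodulin belongs, 14 of 21 were measured, with 0 counted as higher and 1 as lower. Calbindin (Calb1), a cytosolic calcium buffer of some neurons, had 721 ± 40.4 normalized counts in Sham (SD, n = 7) and 653 ± 38.3 in HF-HI (SD, n = 8), a log2 difference of -0.13 (unadjusted p = 0.0076, voom adjusted p = 0.334). With depth as a covariate its unadjusted p was 0.0927. The list's median was -0.04.

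**Figure D5:**
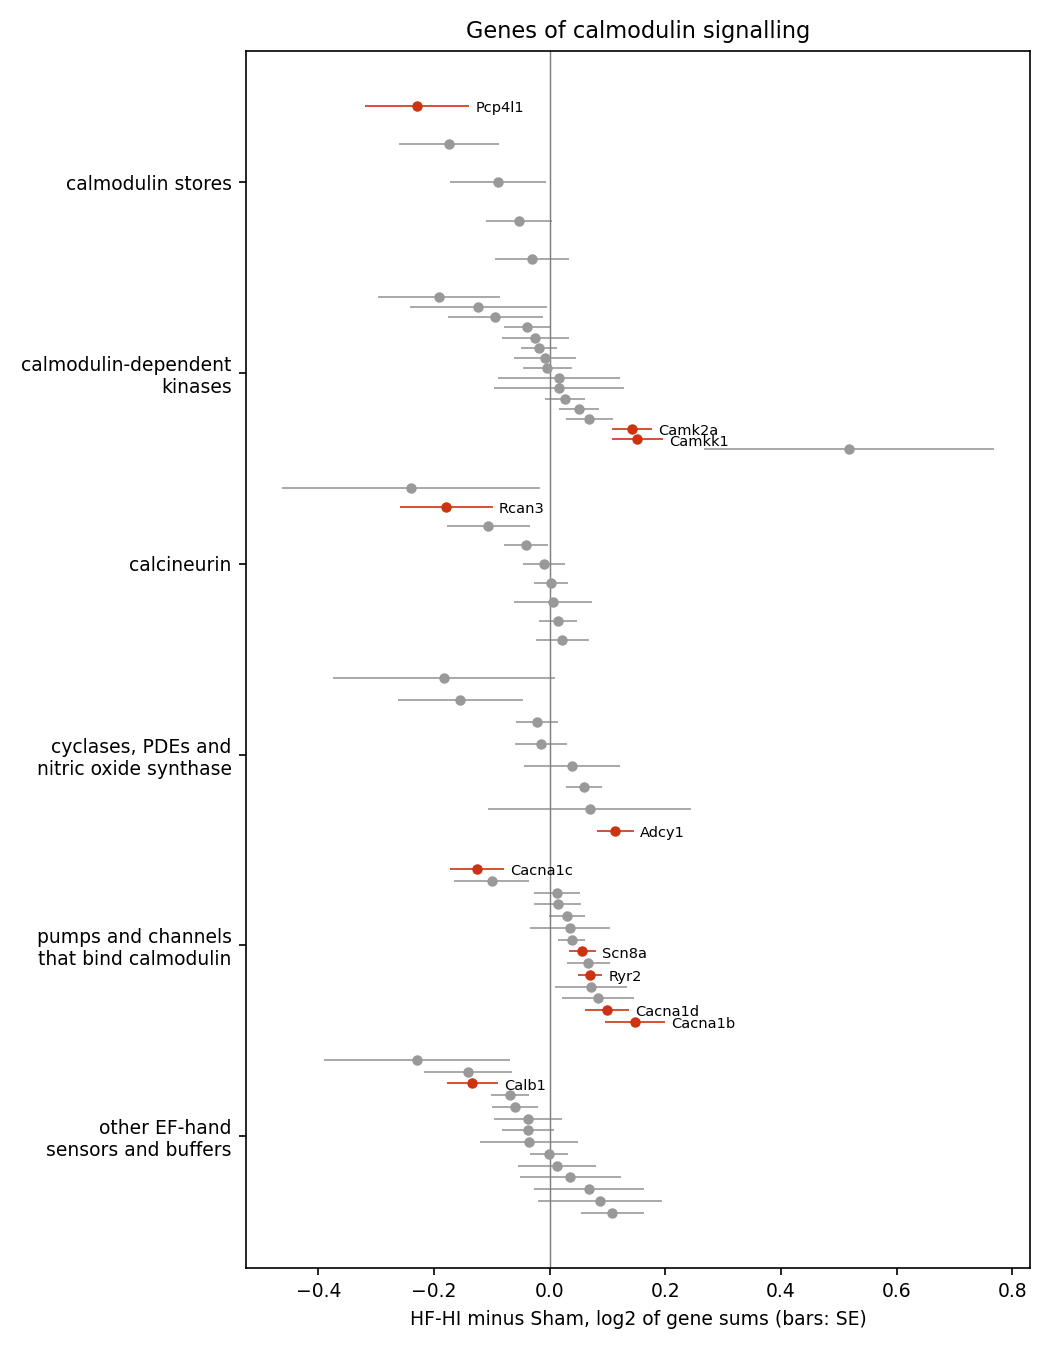
HF-HI minus Sham log2 difference of gene sums (x axis, bars are SE) for the 66 measured genes of the 6 lists, grouped on the y axis, with the 11 at an unadjusted p under 0.05 in red and named. Named genes lie on both sides of 0, and none passed the adjusted threshold.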

How the data were processed

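Per the study's methods, stranded total RNA libraries of cortex were made after ribosomal RNA depletion and sequenced as paired reads of 100 bases. Reads were aligned to mm10 with STAR and counted per transcript with eXpress. The authors used DESeq2 for library scaling, variance stabilization and their own tests between groups. The annotation release was not given in the sources used here. The authors deposited VSD values, on a log2 scale that compresses low counts, for 10370 transcripts.

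The transformation was inverted, and 100% of values came out as whole reads within 0.1 reads (5798810 to 10582858 reads in listed transcripts for Sham, 3496103 to 8666307 for HF-HI). These are not whole depths. The lowest mean was 107.9 normalized counts. GENCODE M21 matched 10241 transcripts and 129 stayed unmatched.

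VSD values were tested per transcript with limma 3.58.1 (R 4.3.3), as HF-HI minus Sham with no other term, two-sided, after eBayes with trend. Reads summed per gene (7870 gene sums) were tested with limma's voom at the recovered size factors. P-values were adjusted by Benjamini-Hochberg over the whole table, and the threshold was 0.1. A test of transcript shares within each gene was planned and could not be run, since Calm2 and Calm3 each have 1 listed transcript. A further 3 annotated transcripts of each were not analysed here, nor are a further gene of the rule and a gene of the lists reported here. P-values weigh the group difference against the spread between samples, which may be partly technical.

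The members and the gene lists were chosen with earlier results of these data known. Named were both members, 11 list genes whatever their values, and list genes with an unadjusted p under 0.05, up to 10 by smallest p. Genes most like a member were ranked by Pearson's r of residuals. The code was tested on simulated data. Alternatives changed the scaling, filter, prior, weights, covariates and libraries.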

Additional observations from a re-analysis of the deposited data

Results flagged for a closer look

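In the HF-HI group the highest library of Calm3, replicate 2, had 14848 normalized counts where the next highest had 13334, a gap of 0.567 of the group's whole range, so it stood apart by Dixon's criterion. In the same group the highest library of the gene sum of Camkk1, replicate 7, had 997 normalized counts where the next highest had 891. These were 2 of 46 groups examined, and chance gives about 1 in 20.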

How the results depend on the processing

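For Calm2 and Calm3 the direction and the side of the adjusted threshold held under all 25 settings of the transcript test. The same held under all 23 settings of the gene sums, which rest on the same reads. Adjusted p-values of the transcripts were 0.670 to 0.995 for Calm2 and 0.446 to 0.990 for Calm3. Leaving out each library in turn, the VSD difference was -0.061 to -0.028 for Calm2 and 0.044 to 0.083 for Calm3. The unadjusted p of Calm3 was under 0.05 in 3 of these 15 fits (without Sham 7, HF-HI 5 or HF-HI 8). For the gene sum of Calm3 it was under 0.05 in 6 of 23 settings, without Sham 7, HF-HI 3, HF-HI 5 or HF-HI 8, with scaling by total reads (unadjusted p = 0.0462, limma adjusted p = 0.511) and with the replicate block (difference 0.089, unadjusted p = 0.0187, limma adjusted p = 0.480).

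Replicate numbers were checked for pairing. Correlations of same-numbered libraries were -0.138 to 0.0905 and 1 of 7 Sham libraries was most like its own number, so they were not read as pairs. A replicate block gave a VSD difference of -0.059 (unadjusted p = 0.217, limma adjusted p = 0.738) for Calm2 and 0.079 (unadjusted p = 0.0467, adjusted p = 0.577) for Calm3, with 891 transcripts at an unadjusted p under 0.05 against 916.

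Depth as a covariate left 533 transcripts at that level against 916. Adjusted calls among gene sums, 0 as reported, were 19 with library weights, 12 without Sham replicate 4, 8 without Sham replicate 5, 3 without HF-HI replicate 5, and 1 with scaling by total reads, with protein-coding transcripts only or without HF-HI replicate 8. Among transcripts they were 2 without the 3 libraries of lowest size factor, and 1 without Sham replicate 5, HF-HI replicate 2 or HF-HI replicate 5. Camk2a passed with library weights (adjusted p = 0.0946) and without Sham replicate 4 (adjusted p = 0.0829).

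Among list genes, differences near 0 changed sign, and the cause was not tested. Ppp3ca was at 0.0035 with scaling by total reads, Ppp3r1 at -0.0017 and Atp2b1 at -0.0011 without the 3 libraries of lowest size factor, Pde1a at 0.0024 with the depth covariate and 0.0038 with protein-coding transcripts only, and Atp2b1 at -0.0074 with the replicate block. Leaving out each library gave -0.0616 to 0.00053 for Nrgn, -0.0273 to 0.0096 for Ppp3ca, -0.0418 to 0.0116 for Pde1a and -0.0071 to 0.0413 for Atp2b1. For Camk2b it gave 0.0090 to 0.0438 and for Camk4 -0.0657 to -0.0191. Depth and group cannot be told apart below the lowest Sham size factor of 0.818, where 4 HF-HI libraries lie. Alternatives for transcript shares were not run, since that test could not be made.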
